A study of Mus musculus with 10 samples.

Results

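Genes of the cardiac and lateral mesoderm programme were followed across RNA-seq libraries of mouse embryoid bodies in which Etv2 was induced. The set was 10 genes out of 23337 in the table, taken by symbol as its entries Pdgfra, Hand1, Gata4, Gata6, Tbx20, Mef2c, Foxf1a, Isl1, Tbx2 and Msx2 (Foxf1a is the older symbol of Foxf1). Embryoid bodies are aggregates of differentiating embryonic stem cells, and the iHA-Etv2 line carries an Etv2 copy that doxycycline switches on. There were 5 groups of 2 libraries: embryoid bodies treated with doxycycline and untreated ones at day 2, and Flk1-positive doxycycline-treated, other doxycycline-treated and untreated ones at day 2.5. All groups came from the same line. The labels name only 2 libraries as Flk1-positive, without saying whether the other 8 were unsorted or a negative fraction. No doxycycline-treated cells without the transgene were analysed here, so effects of the drug and of Etv2 cannot be told apart. The labels do not state that replicates were separate cultures, so p-values measure only how these libraries scatter, part of which may be technical.

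Early mesoderm gives rise to blood and vessel progenitors, marked by the receptor Flk1 (gene Kdr), and to cardiac, lateral plate and paraxial cells, many of which carry the receptor Pdgfra. Etv2 is an ETS-family transcription factor needed for the blood and vessel branch, and in mouse embryos lacking it, cells of that branch have been described to take up cardiac fates. The GATA, T-box, MEF2, HAND, ISL, MSX and FOX factors of the set act together in heart and lateral mesoderm, and several of them, such as Gata4, Gata6 and Foxf1, also act in endoderm or in vessels. The comparisons address whether genes of the alternative mesoderm fate are higher or lower when Etv2 is induced by doxycycline in this line.

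Levels are CPM, counts per 1000000 of TMM-scaled library size, from total counts of 18074070 to 36068329 per library. At these depths 3 counts, the limit that a count of 0 allows, are 0.0824 to 0.164 CPM, and this covers counting error only. Etv2 had 507 and 403 CPM with doxycycline at day 2, against 15.8 and 18.1 CPM untreated. At day 2.5 it had 323 and 303 CPM in Flk1-positive, 272 and 255 CPM in other doxycycline-treated and 6.57 and 7.50 CPM in untreated samples. Reads of the induced copy and of the cell's own gene cannot be separated. Kdr, the gene of the sorted protein, had 1008 and 986 CPM in Flk1-positive, 405 and 433 CPM in other doxycycline-treated and 7.05 and 7.42 CPM in untreated samples of day 2.5. The libraries of the day-2 doxycycline pair were the least alike, with a mean chi-square over genes of 33.9, against 3.4 in the day-2 untreated pair.

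Of the 10 genes, 9 passed the filter on low counts and were tested, among 14548 genes in all. Foxf1a, a forkhead factor of lateral plate and extraembryonic mesoderm, did not pass. It had 1 and 9 counts with doxycycline and 13 and 2 untreated at day 2, then 0 and 0 in Flk1-positive, 4 and 0 in other doxycycline-treated and 0 and 4 in untreated samples of day 2.5. These counts overlap between the groups of each day.

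The members whose levels moved most in opposite directions were Tbx20 and Pdgfra, and the 250 bases before their RefSeq start sites (GRCm38.p6) are given with every GGAA, the core letters of ETS-family sites, in capitals on either strand (TTCC is the same letters on the other strand). Tbx20 lies on the minus strand, with its window at chr9:24774304-24774553, and Pdgfra on the plus strand, with its window at chr5:75152001-75152250.

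Tbx20: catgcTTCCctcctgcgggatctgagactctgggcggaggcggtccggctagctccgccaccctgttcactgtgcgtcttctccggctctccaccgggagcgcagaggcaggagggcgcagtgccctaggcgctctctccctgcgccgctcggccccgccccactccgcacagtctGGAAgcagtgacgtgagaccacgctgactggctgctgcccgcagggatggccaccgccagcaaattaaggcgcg

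Pdgfra: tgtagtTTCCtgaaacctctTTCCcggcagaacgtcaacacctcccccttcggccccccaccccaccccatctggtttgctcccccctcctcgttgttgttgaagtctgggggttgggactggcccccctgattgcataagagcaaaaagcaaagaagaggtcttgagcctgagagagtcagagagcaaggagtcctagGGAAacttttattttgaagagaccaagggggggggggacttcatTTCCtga

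GGAA occurred 2 times in the Tbx20 window and 4 times in that of Pdgfra. Of 32851 promoter windows of this length, 93.4% held GGAA on at least 1 strand, with a median of 3, so its presence marks neither gene. The longer word CCGGAA, which contains GGAA and was found in 12% of windows, occurred in neither. The GATA word AGATAA, in 9.99% of windows, also occurred in neither. The E-box word CANNTG, in 66.2% of windows, and the T-box word AGGTGT, in 11.8%, occurred once each in Pdgfra and in no position of the Tbx20 window. RefSeq windows were matched for 5 of the 10 genes, the others being Isl1, Mef2c and Msx2. A match of letters is a description and not a binding site.

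At day 2.5 the set split in both directions with doxycycline. Tbx20, Gata6 and Mef2c rose, Pdgfra and Msx2 fell, and Isl1, Hand1, Gata4 and Tbx2 did not pass the threshold. That is 3 of 9 tested genes higher and 2 of 9 lower, where 29.9% of all tested genes passed in either direction, 16.1% higher and 13.8% lower (edgeR's quasi-likelihood test, Benjamini-Hochberg adjusted p under 0.05). Within bulk samples, fewer cells of a type and less RNA per cell cannot be told apart.

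**Figure D1:**
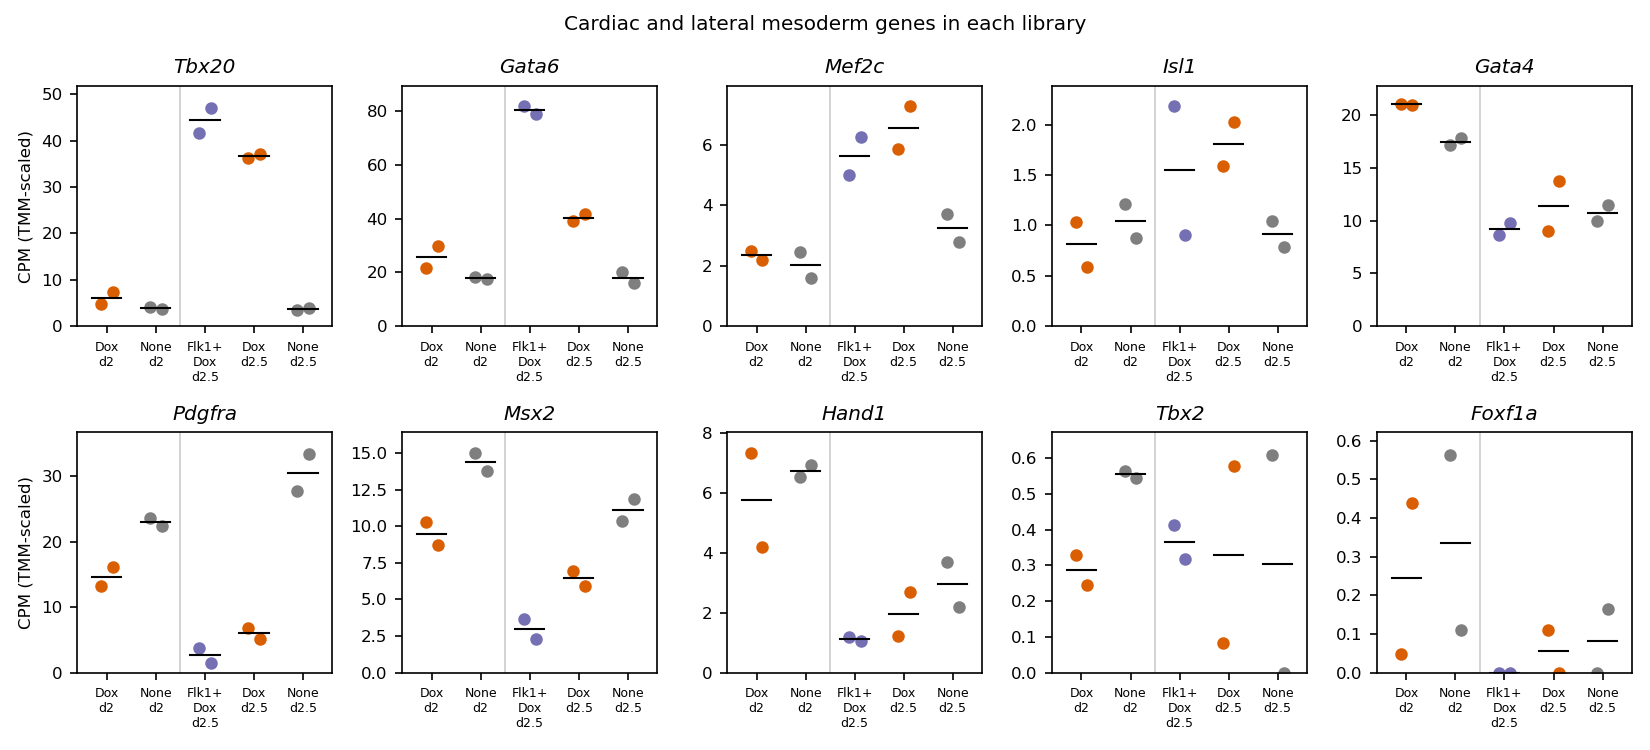
Level of each of the 10 genes in every library, in CPM on axes starting at 0, by group; points are libraries, black lines group means, and the grey line separates day 2 from day 2.5. Tbx20 and Gata6 are highest in the Flk1-positive pair at day 2.5, Pdgfra and Msx2 are lowest there, and Gata4 and Hand1 are higher at day 2.

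The transcription factors that rose differed in size and in where they were highest. Tbx20 is a T-box factor required for growth of the heart tube, and lies on chromosome 9 from 24718138 to 24774303. It had 41.6 and 47.1 CPM in Flk1-positive, 36.2 and 37.1 CPM in other doxycycline-treated and 3.48 and 3.85 CPM in untreated samples of day 2.5. At day 2 it had 4.86 and 7.48 CPM with doxycycline, against 4.16 and 3.60 CPM untreated. Both treated groups of day 2.5 stand far above all 6 other libraries. With doxycycline it was higher by 3.32 ± 0.19 on the log2 scale at day 2.5 (log2 fold change ± SE, edgeR, adjusted p = 2.68e-09). Flk1-positive samples exceeded the other doxycycline-treated ones by 0.28 ± 0.16, which did not pass (edgeR, adjusted p = 0.171), although it did when those groups alone were fitted (adjusted p = 0.0195).

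Gata6, a zinc-finger factor of cardiac mesoderm and of endoderm, rose with doxycycline and was higher again in the Flk1-positive samples. It had 81.8 and 79.1 CPM in Flk1-positive, 39.2 and 41.6 CPM in other doxycycline-treated and 20.02 and 15.9 CPM in untreated samples of day 2.5. At day 2 it had 21.8 and 29.7 CPM with doxycycline, against 18.5 and 17.5 CPM untreated. The 3 groups of day 2.5 do not overlap. Its log2 difference was 1.17 ± 0.15 for doxycycline against untreated (edgeR, adjusted p = 1.96e-05) and 0.99 ± 0.14 for Flk1-positive against other doxycycline-treated samples (edgeR, adjusted p = 5.32e-05).

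Gata4, the close relative of Gata6 with which it shares DNA-binding specificity, did not follow it. It had 8.67 and 9.75 CPM in Flk1-positive, 9.06 and 13.7 CPM in other doxycycline-treated and 9.92 and 11.4 CPM in untreated samples of day 2.5. The doxycycline-treated pair spans the untreated one and overlaps the Flk1-positive one. Its log2 differences were 0.09 ± 0.19 for doxycycline against untreated (edgeR, adjusted p = 0.748), or -0.24 without replicate 2 of the doxycycline-treated pair (0.467), and -0.31 ± 0.19 for Flk1-positive against other doxycycline-treated samples (edgeR, adjusted p = 0.204). The second passed, at -0.58, once replicate 1 of the doxycycline-treated pair was left out (adjusted p = 0.0334).

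The balance of the GATA pair can be read as the ratio of their levels in CPM per kilobase of exon. Gata6 over Gata4 was 5.66 and 4.87 in Flk1-positive, 2.60 and 1.82 in other doxycycline-treated and 1.21 and 0.835 in untreated samples of day 2.5. At day 2 it was 0.620 and 0.850 with doxycycline, against 0.645 and 0.589 untreated. Per kilobase, Gata4 thus exceeded Gata6 in all 4 libraries of day 2, and Gata6 exceeded Gata4 in all 4 treated libraries of day 2.5. The day-2 order rests on the exon lengths used, 6508 bases for Gata6 and 3904 for Gata4. In CPM at day 2, Gata6 had 21.8 and 29.7 with doxycycline, beside 21.1 and 21.0 for Gata4. Untreated, Gata6 had 18.5 and 17.5 CPM, beside 17.2 and 17.8 CPM for Gata4.

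**Figure D2:**
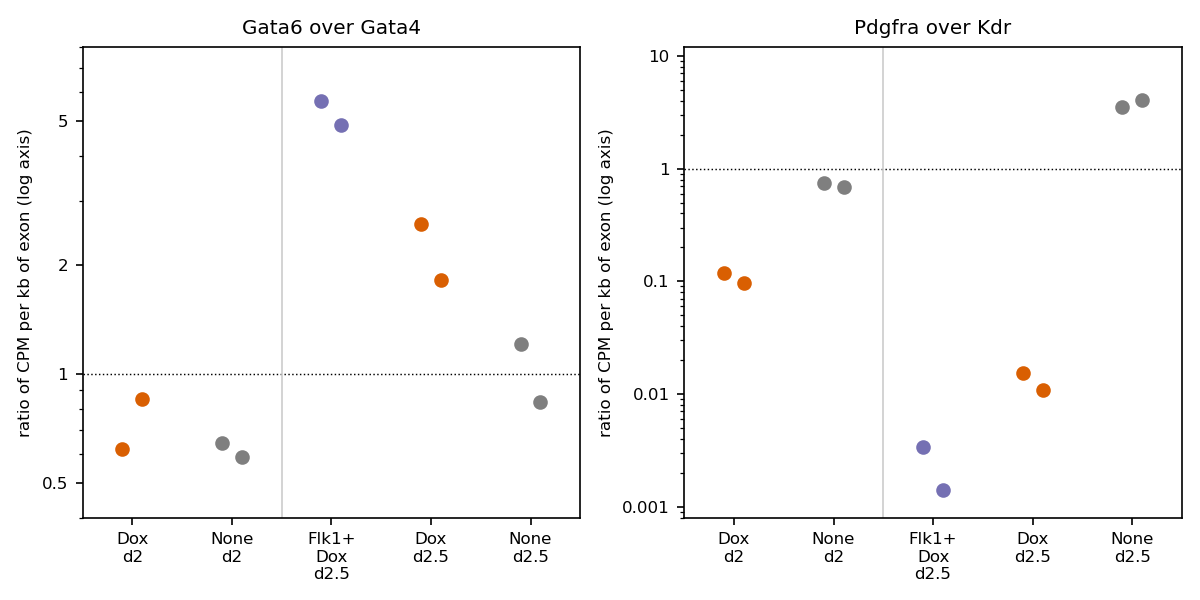
Ratio of levels in CPM per kilobase of exon, on log axes, for Gata6 over Gata4 (left) and Pdgfra over Kdr (right); points are libraries, and the dotted line is a ratio of 1. Gata6 over Gata4 is highest in the Flk1-positive pair, at 5.66 and 4.87, and Pdgfra over Kdr is above 1 in the untreated pair of day 2.5, at 3.54 and 4.05, and below it in the other libraries.

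Mef2c, a MADS-box factor of cardiac, muscle and vessel cells, had low levels throughout. It had 4.997 and 6.25 CPM in Flk1-positive, 5.85 and 7.28 CPM in other doxycycline-treated and 3.70 and 2.78 CPM in untreated samples of day 2.5. The treated libraries are all above the untreated ones, and the Flk1-positive and doxycycline-treated pairs overlap. It was higher by 1.02 ± 0.27 with doxycycline (edgeR, adjusted p = 0.010002), but the call was lost without replicate 2 of the doxycycline-treated pair (adjusted p = 0.103) or of the untreated pair (0.104). Isl1, a LIM-homeobox factor of second heart field progenitors, had 2.19 and 0.901 CPM in Flk1-positive, 1.59 and 2.02 CPM in other doxycycline-treated and 1.04 and 0.787 CPM in untreated samples. Its difference with doxycycline was 0.98 ± 0.50 (edgeR, adjusted p = 0.165).

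Pdgfra, the platelet-derived growth factor receptor on paraxial and cardiac mesoderm, fell most. It lies on chromosome 5 from 75152292 to 75198215, where 6.50% of its exon bases overlap other genes. It had 3.76 and 1.54 CPM in Flk1-positive, 6.84 and 5.20 CPM in other doxycycline-treated and 27.7 and 33.4 CPM in untreated samples of day 2.5. At day 2 it had 13.2 and 16.1 CPM with doxycycline, against 23.7 and 22.4 CPM untreated. The groups do not overlap at either day. It fell by 2.34 ± 0.24 on the log2 scale with doxycycline at day 2.5 (edgeR, adjusted p = 2.95e-06). In Flk1-positive against other doxycycline-treated samples it fell by 1.14 ± 0.28 (edgeR, adjusted p = 0.00486), but by 0.68 and short of the threshold without replicate 2 of the Flk1-positive pair (adjusted p = 0.0607).

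Pdgfra was also set against Kdr, the receptor of the vessel branch. The ratio of Pdgfra to Kdr per kilobase was 0.00336 and 0.00140 in Flk1-positive, 0.0152 and 0.0108 in other doxycycline-treated and 3.54 and 4.05 in untreated samples of day 2.5. At day 2 it was 0.120 and 0.0961 with doxycycline, against 0.750 and 0.692 untreated. Kdr encodes the sorted protein, so the low ratio of the Flk1-positive pair is in part set by the sort and is given as a description. Both genes moved with doxycycline, Kdr being higher at day 2.5 by 5.85 ± 0.18 (edgeR, adjusted p = 3.16e-12). In untreated samples Kdr had 7.05 and 7.42 CPM at day 2.5, against 28.5 and 29.1 CPM at day 2, and fell by 1.99 ± 0.17 (edgeR, adjusted p = 7.99e-06), while the difference of Pdgfra did not pass.

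Msx2, a homeobox factor downstream of BMP signalling, had 3.68 and 2.28 CPM in Flk1-positive, 6.95 and 5.92 CPM in other doxycycline-treated and 10.4 and 11.9 CPM in untreated samples of day 2.5. The groups do not overlap. It fell by 0.79 ± 0.21 with doxycycline (edgeR, adjusted p = 0.00885) and by 1.09 ± 0.23 in Flk1-positive against other doxycycline-treated samples (edgeR, adjusted p = 0.00146). The first call was lost without replicate 2 of the doxycycline-treated pair (adjusted p = 0.0950) or of the untreated pair (0.0808).

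Hand1, a bHLH factor of lateral plate and extraembryonic mesoderm, had 1.20 and 1.06 CPM in Flk1-positive, 1.21 and 2.69 CPM in other doxycycline-treated and 3.70 and 2.20 CPM in untreated samples of day 2.5. The doxycycline-treated pair overlaps the untreated one. Its difference was -0.60 ± 0.39 with doxycycline (edgeR, adjusted p = 0.271) and -0.77 ± 0.43 for Flk1-positive against other doxycycline-treated samples (edgeR, adjusted p = 0.168). The second passed, at -1.24, without replicate 1 of the doxycycline-treated pair (adjusted p = 0.0422). Tbx2, a T-box repressor of the cardiac chamber programme, was between 0 and 0.609 CPM in every library, with counts of 0 to 20, and its differences had standard errors over 1.

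Across Flk1-positive and other doxycycline-treated samples, 1 of 9 tested genes was higher, Gata6, and 2 were lower, Pdgfra and Msx2. Of all tested genes 41.8% passed in this comparison, 20.5% higher and 21.3% lower. Against untreated samples of day 2.5, the Flk1-positive pair had 3 members higher and 3 lower, with 55.3% of all tested genes past the threshold, 28.6% higher and 26.6% lower. Tbx20 was higher by 3.59 ± 0.19 (edgeR, adjusted p = 4.11e-10), Gata6 by 2.16 ± 0.15 (8.89e-09) and Mef2c by 0.79 ± 0.28 (0.0250). Pdgfra fell by 3.48 ± 0.27 (edgeR, adjusted p = 5.44e-08), Msx2 by 1.88 ± 0.23 (5.31e-06) and Hand1 by 1.37 ± 0.43 (0.0140). The Mef2c call was lost without replicate 2 of the Flk1-positive pair (adjusted p = 0.180) or of the untreated pair (0.173), and with length and GC trends removed (0.0583). The Hand1 call was lost without replicate 1 or 2 of the Flk1-positive pair (0.0558 and 0.0693) or replicate 1 of the untreated pair (0.152), and in limma-voom (0.0519). These comparisons share their libraries.

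**Figure D3:**
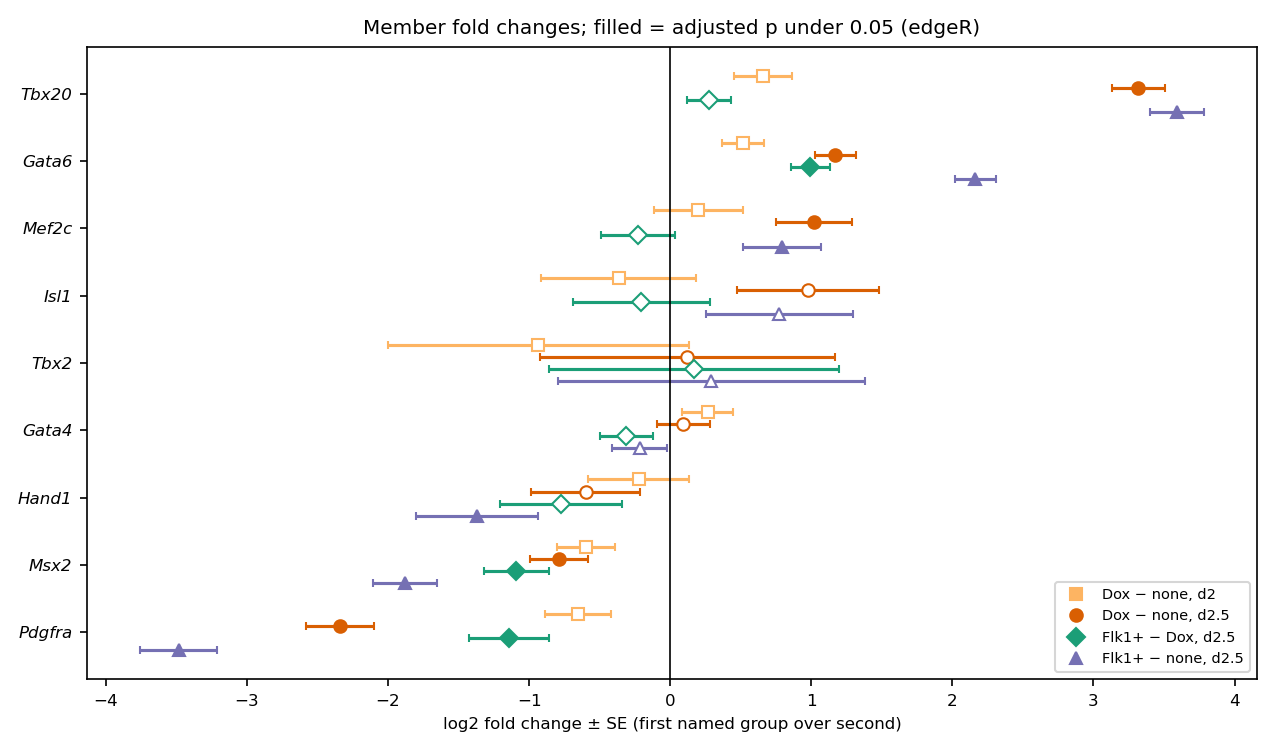
Log2 fold change ± SE of the 9 tested genes (first named group over second) in 4 comparisons, with filled symbols where edgeR's adjusted p is under 0.05. Tbx20 and Gata6 lie to the right of 0 and Pdgfra and Msx2 to the left at day 2.5, and no symbol of day 2 is filled.

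At day 2, none of the 9 tested genes passed with doxycycline in edgeR, where 4.67% of all tested genes did, 3.11% higher and 1.56% lower. At an unadjusted p under 0.05, 2 were higher, Gata6 and Tbx20, and 2 were lower, Msx2 and Pdgfra. DESeq2 called 1 of them, Gata6 (adjusted p = 0.0361), and limma-voom called none. The log2 differences were 0.52 ± 0.15 for Gata6 (edgeR, adjusted p = 0.0681) and 0.66 ± 0.21 for Tbx20 (0.0896). They were -0.60 ± 0.21 for Msx2 (edgeR, adjusted p = 0.128) and -0.65 ± 0.23 for Pdgfra (0.146). Leaving out a library of the doxycycline pair decided calls here: without replicate 1, Gata6 (3.93e-04), Tbx20 (0.00193) and Msx2 (0.0438) passed, and without replicate 2, Pdgfra (0.0269) did.

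The doxycycline difference at day 2.5 was tested against that at day 2. It was greater for Tbx20 by 2.66 ± 0.28 (edgeR interaction, adjusted p = 1.53e-05) and more negative for Pdgfra by 1.69 ± 0.33 (log2 -1.69, adjusted p = 0.00373). These were 1 higher and 1 lower of 9, where 12.1% of all tested genes passed, 6.87% higher and 5.24% lower. Gata6 had 0.65 ± 0.21 and missed the threshold (edgeR, adjusted p = 0.0546). It passed in DESeq2 (0.0364), without the filter on low counts (0.0167), without replicate 2 of the day-2 doxycycline pair (3.07e-04) and without replicate 1 of the day-2.5 untreated pair (0.0425).

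Day 2.5 was also set against day 2 within each treatment. With doxycycline, day 2.5 against day 2 had 3 members higher and 4 lower of 9, where 46.0% of all tested genes passed, 22.9% higher and 23.1% lower. Tbx20 rose by 2.57 ± 0.18 (edgeR, adjusted p = 5.94e-08), Mef2c by 1.48 ± 0.28 (6.29e-04) and Gata6 by 0.65 ± 0.14 (0.00184). Hand1 fell by 1.57 ± 0.38 (edgeR, adjusted p = 0.00324), Pdgfra by 1.28 ± 0.24 (6.20e-04), Gata4 by 0.88 ± 0.18 (0.00109) and Msx2 by 0.56 ± 0.21 (0.0380). The Msx2 call was lost without replicate 1 of the day-2 doxycycline pair (0.148), replicate 1 or 2 of the day-2.5 doxycycline pair (0.0615 and 0.212), either day-2 untreated library (0.0572 and 0.0563) or replicate 2 of the day-2.5 untreated pair (0.0507). It was also lost with only the groups compared (0.0762) and with length and GC trends removed (0.0502).

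In untreated samples, Gata4 and Hand1 fell with time and no member rose, where 19.5% of all tested genes passed, 9.22% higher and 10.3% lower. Gata4 had 9.92 and 11.4 CPM at day 2.5, against 17.2 and 17.8 CPM at day 2, and fell by 0.71 ± 0.19 (edgeR, adjusted p = 0.0162). Hand1 had 3.70 and 2.20 CPM at day 2.5, against 6.54 and 6.93 CPM at day 2, and fell by 1.19 ± 0.37 (0.0352). The Gata4 call was lost without any 1 of the untreated libraries (0.0761 to 0.109). That of Hand1 was lost without either day-2 untreated library (0.127 and 0.153), replicate 2 of day 2.5 (0.288) or either Flk1-positive library (0.0539 and 0.0544). Pdgfra differed by 0.41 ± 0.22 (edgeR, adjusted p = 0.224). Beside the 0 higher calls, 1 member was higher at an unadjusted p under 0.05, and DESeq2 and limma-voom also called 0.

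Within a library, the order of levels per kilobase of exon shifted with treatment. In untreated samples of day 2.5, Msx2 had 3.39, Pdgfra 3.05, Gata6 2.76 and Gata4 2.74 CPM per kilobase, which neighbour each other without separating beyond their spread, and Tbx20 had 0.306. In Flk1-positive samples Gata6 had 12.4, Tbx20 3.70, Gata4 2.36, Msx2 0.908 and Pdgfra 0.264 CPM per kilobase. In the other doxycycline-treated samples Gata6 had 6.21 CPM per kilobase, and Tbx20 with 3.05 and Gata4 with 2.92 overlapped. At day 2 Gata4 led with doxycycline, at 5.38 CPM per kilobase. In untreated samples of day 2, Gata4 with 4.48 and Msx2 with 4.38 overlapped.

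Genes with the profile most like a member, by the root-mean-square difference of centred log2 CPM over the 10 libraries among 11387 genes, were Magi3 (0.22) and Lcp1 (0.23) for Tbx20. They were Tet2 (0.11) and Cdk17 (0.14) for Gata6, and Etv1 (0.27) and Magel2 (0.28) for Pdgfra. For Msx2 they were Prr19 and Col5a1 (0.18 each), for Mef2c Cd99l2 (0.15) and Dyrk1b (0.19), and for Hand1 Zfp296 (0.32) and Syngr1 (0.34). A smaller value is a closer match.

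Other cardiac genes also went both ways, as did tested genes in general. With doxycycline at day 2.5, 16.1% of all tested genes were higher and 13.8% lower. In Flk1-positive against other doxycycline-treated samples 20.5% were higher and 21.3% lower. The counts of this and the following lists are to be read beside these shares. Of 17 cardiac regulators, 13 were tested, and with doxycycline at day 2.5 6 were higher and 4 lower, with a median log2 of -0.50 against 0.0030 over all tested genes. Fgf10, a growth factor of second heart field cells, averaged 42.6 ± 0.637 CPM with doxycycline and 12.7 ± 0.888 CPM untreated (SD, n = 2 each), higher by 1.75 ± 0.13 (edgeR, adjusted p = 6.23e-08). Mesp1, a bHLH factor of the earliest cardiac progenitors, averaged 2.17 ± 0.859 CPM with doxycycline and 20.8 ± 1.14 CPM untreated, and fell by 3.26 ± 0.29 (edgeR, adjusted p = 5.07e-07). Fgf8, which together with Mesp1 also marks the primitive streak, fell by 2.26 ± 0.16 (edgeR, adjusted p = 7.44e-08). The count of higher genes was 3 without replicate 2 of the doxycycline-treated pair or replicate 1 of the untreated pair, and 2 without replicate 2 of the untreated pair. In Flk1-positive against other doxycycline-treated samples, 2 were higher and 4 lower, with a median of -0.78 against -0.0040 over all tested genes, and 1 was higher on leaving out any 1 of those 4 libraries.

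Of 18 contractile and muscle genes, 12 were tested. With doxycycline at day 2.5 none was higher in edgeR, DESeq2 or limma-voom, 1 was at an unadjusted p under 0.05, and 4 were lower, with a median log2 of -0.50. Actc1, the cardiac actin gene, averaged 2.43 ± 0.524 CPM with doxycycline and 6.72 ± 0.652 CPM untreated (SD, n = 2 each), and fell by 1.47 ± 0.29 (edgeR, adjusted p = 0.00136). The count of lower genes was 1 without replicate 2 of the doxycycline-treated or untreated day-2.5 pair, and 2 without either day-2 untreated library, either Flk1-positive library or replicate 1 of those day-2.5 pairs. In Flk1-positive against other doxycycline-treated samples 1 was higher and 3 lower, or 1 lower without replicate 2 of the doxycycline-treated pair. The higher gene was Tnni3, a troponin gene, which averaged 5.99 ± 0.820 CPM in Flk1-positive and 2.46 ± 0.0676 CPM in other doxycycline-treated samples, higher by 1.28 ± 0.30 (edgeR, adjusted p = 0.00318). Myh6, the cardiac myosin gene, averaged 6.79 CPM in Flk1-positive, 11.8 CPM in other doxycycline-treated and 10.1 CPM in untreated samples of day 2.5, and Actn2, an actinin of the sarcomere, 5.30, 4.05 and 7.82 CPM in the same groups. Of the other heart markers, Nkx2-5 and Tnnt2 were near 0 there. Nkx2-5 averaged 0.24 CPM in Flk1-positive, 0.48 CPM in other doxycycline-treated and 0.22 CPM in untreated samples, and Tnnt2 had 0 to 2 counts in any of these libraries.

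Of 24 lateral plate and extraembryonic mesoderm genes, 17 were tested. With doxycycline at day 2.5, 5 were higher and 2 lower, with a median log2 of 0.27. Tbx3, a T-box relative of Tbx2, averaged 42.0 ± 3.05 CPM with doxycycline and 14.9 ± 3.60 CPM untreated (SD, n = 2 each), higher by 1.499 ± 0.15 (edgeR, adjusted p = 1.43e-06). Snai1, a repressor of epithelial genes, fell by 1.13 ± 0.11 (edgeR, adjusted p = 1.04e-06). In Flk1-positive against other doxycycline-treated samples 4 were higher and 8 lower, with a median of -0.53. Twist1, a bHLH factor of mesenchyme, averaged 12.2 ± 0.294 CPM in Flk1-positive and 23.3 ± 3.59 CPM in other doxycycline-treated samples, and fell by 0.93 ± 0.16 (edgeR, adjusted p = 2.56e-04). The higher count was 1 or 2 on leaving out any 1 of those 4 libraries, and the lower count 4 or 5 without replicate 1 or 2 of the Flk1-positive pair.

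Family relatives of the members included genes of the blood branch. Of 21 relatives 16 were tested, and with doxycycline at day 2.5 6 were higher and 3 lower, with a median log2 of -0.02. Gata2, a GATA factor of blood and vessel cells, averaged 180 ± 5.79 CPM with doxycycline and 1.85 ± 0.334 CPM untreated (SD, n = 2 each), higher by 6.60 ± 0.18 (edgeR, adjusted p = 7.44e-13). Lhx1, a LIM-homeobox relative of Isl1, fell by 2.37 ± 0.14 (edgeR, adjusted p = 5.49e-09). In Flk1-positive samples Lhx1 averaged 31.4 ± 2.77 CPM and was higher by 2.12 ± 0.14 than in other doxycycline-treated samples (edgeR, adjusted p = 4.25e-08). Without replicate 1 of the doxycycline-treated or of the untreated pair the higher count with doxycycline was 3, and without replicate 2 of the doxycycline-treated pair the lower count was 1. In Flk1-positive against other doxycycline-treated samples 3 relatives were higher and 5 lower, or 2 lower without replicate 1 of the doxycycline-treated or replicate 2 of the Flk1-positive pair.

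All 15 ligands and partners of the members were tested, and with doxycycline at day 2.5 6 were higher and 3 lower, with a median log2 of 0.20. Hdac7, a class II histone deacetylase that binds MEF2 factors, averaged 194 ± 12.9 CPM with doxycycline and 25.2 ± 3.33 CPM untreated (SD, n = 2 each), higher by 2.94 ± 0.11 (edgeR, adjusted p = 2.83e-11). It was already higher at day 2, by 1.46 ± 0.11 (edgeR, adjusted p = 7.97e-07). Zfpm1, a cofactor of GATA proteins, was higher by 2.60 ± 0.12 at day 2.5 (edgeR, adjusted p = 3.23e-10). Of the platelet-derived ligands, Pdgfb averaged 11.1 ± 0.244 CPM with doxycycline and 3.67 ± 0.143 CPM untreated, higher by 1.59 ± 0.19 (edgeR, adjusted p = 1.29e-05). Pdgfa, the main ligand of Pdgfra and named after its values were seen, averaged 6.42 ± 0.308 CPM with doxycycline and 16.4 ± 0.125 CPM untreated, and fell by 1.35 ± 0.16 (edgeR, adjusted p = 1.42e-05). In Flk1-positive against other doxycycline-treated samples 4 were higher and 1 was lower. The lower gene was Pdgfc, another ligand of Pdgfra, which fell by 1.81 ± 0.28 (edgeR, adjusted p = 1.34e-04).

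**Figure D4:**
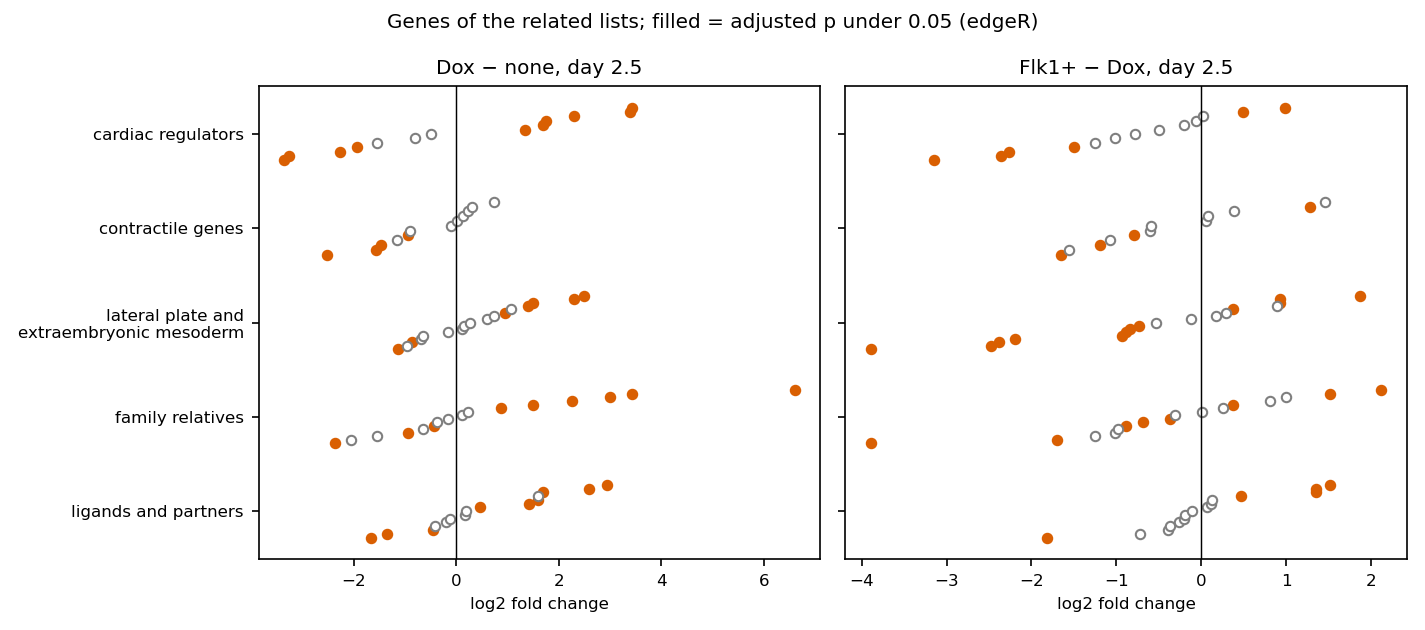
Log2 fold change of each tested gene of 5 related lists for doxycycline against untreated (left) and Flk1-positive against other doxycycline-treated samples (right) at day 2.5; filled points have an adjusted p under 0.05 in edgeR. Contractile genes have no filled point right of 0 with doxycycline, and every other list has filled points on both sides.

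At day 2, cardiac regulators had 0 higher and 3 lower, contractile genes 0 and 0, lateral and extraembryonic genes 0 and 1, relatives 0 and 2, and ligands and partners 3 and 1 in edgeR. Of all tested genes 3.11% were higher and 1.56% lower. DESeq2 and limma-voom also gave 0 higher in the first 4 lists and 0 lower contractile genes. At an unadjusted p under 0.05 the higher counts of those lists were 2, 0, 2 and 1, and no contractile gene was lower. Without replicate 1 of the day-2 untreated pair the lower counts were 1 regulator, 0 relatives and 0 ligands and partners, with 1 of the last list higher, and without replicate 2 they were 1, 1 and 0. Without replicate 1 of the day-2 doxycycline pair 2 regulators and 1 relative were higher and 3 ligands and partners lower, and without replicate 2, 2 lateral genes and 1 relative were higher, and 2 lateral genes and 4 ligands and partners lower. Without any 1 library of day 2.5, no ligand or partner was lower.

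The summed level of 15 endothelial markers was 1784 to 1834 CPM in Flk1-positive, 694 to 728 CPM in other doxycycline-treated and 75.3 to 78.2 CPM in untreated samples of day 2.5. This sum rose from untreated to Flk1-positive samples, while the members went in both directions. Not every marker followed the sum. Of 14 tested, 12 were higher and 1 lower in Flk1-positive against other doxycycline-treated samples, or 0 lower in limma-voom. Of all tested genes 20.5% were higher and 21.3% lower there. Pecam1, named after its values were seen, averaged 5.40 CPM in Flk1-positive, 8.35 CPM in other doxycycline-treated and 5.33 CPM in untreated samples. The sum of 14 haematopoietic markers was 1812 to 1905, 702 to 723 and 19.9 to 22.8 CPM in the same groups. Most of it in Flk1-positive samples came from Tal1, Lmo2 and Gata2, which averaged 651, 590 and 514 CPM there. The globin genes Hbb-bh1 and Hba-x had 0 counts in both treated groups of day 2.5. Klf1 averaged 0.16 CPM and Gata1 2.08 CPM in Flk1-positive samples. The part of endothelial and blood cells in the levels of the members was not tested. Because Gata6, Gata4 and Pdgfra are also used in primitive endoderm, its 15 markers were summed too, at 570 to 589 CPM in Flk1-positive, 430 to 439 CPM in other doxycycline-treated and 270 to 282 CPM in untreated samples. Of the 11 tested, 5 were higher and 1 lower with doxycycline. The higher ones were Sox7 and Sox17, which are also expressed in vessels, Dab2, an endocytic adaptor, and the basement membrane genes Lama1 and Col4a1. In Flk1-positive against other doxycycline-treated samples 3 were higher and 3 lower. Sox7 averaged 153 CPM in Flk1-positive, 55.5 CPM in other doxycycline-treated and 0.25 CPM in untreated samples, and Sox17 41.4, 10.8 and 0.51 CPM. Both are part of the sum. Lama1 averaged 37.8 CPM in Flk1-positive, 33.3 CPM in other doxycycline-treated and 7.66 CPM in untreated samples. Dab2 averaged 48.8, 51.9 and 28.2 CPM and Col4a1 267, 198 and 115 CPM in the same groups. Other markers were lowest in Flk1-positive samples. In the same order of groups, Lrp2 averaged 21.8, 51.7 and 88.4 CPM, Rhox5 6.89, 27.4 and 28.7 CPM, and Pth1r 0.56, 3.12 and 4.84 CPM. Of the markers near 0, Afp had 0 counts in all 6 libraries of day 2.5 and Ttr 0 to 2, Amn averaged 0.22 CPM in Flk1-positive, 0.47 CPM in other doxycycline-treated and 1.04 CPM in untreated samples, and Cubn 0.49, 1.38 and 0.65 CPM in the same groups. The part of such cells in the levels of Gata6, Gata4 and Pdgfra was not tested.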

How the data were processed

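RNA of 10 libraries in 5 groups was measured by RNA-seq, and the authors deposited raw counts per gene in 1 table. The tools TopHat, HTSeq and DESeq2 and the build mm10 are named, without versions or roles, per the submitters' processing notes. The annotation, strand setting and treatment of multiply mapping reads are unstated in those sources, so overlapping and antisense genes cannot be separated. The table held 23337 genes, 4811 of them at 0 in every library, besides 92 spike-in entries with 0 counts, which were left out.

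The analysis used edgeR 4.0.16 under R 4.3.3: filterByExpr (minimum count 10, minimum total 15) kept 14548 genes, libraries were scaled by TMM, and a robust quasi-likelihood fit of the group means took in all 10 libraries (5 residual degrees of freedom, common biological coefficient of variation 0.10). The 7 comparisons were each adjusted by Benjamini-Hochberg over all tested genes at 0.05. The procedure was also run on simulated data that gave all genes and groups the same spread. The replicate pairs here differ in spread, so that run does not measure error rates in these libraries. Log2 fold changes carry a standard error from the F statistic. Exon lengths and positions came from the GENCODE M21 annotation of GRCm38, and promoter windows from RefSeq. No 2 libraries were identical, and replicates differed by more than sampling noise.

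The members and lists were chosen with earlier results of these data known, so their direction is no independent evidence. Members, Etv2 and Kdr were named throughout. Up to 3 genes per list with the smallest adjusted p in each of the first 4 comparisons were open to naming, as were markers near 0 that define a cell type and, for each member called, the 2 genes with the closest profile (mean of at least 5 CPM in the highest group). Besides the lists of the report there were 5 marker lists of definitive endoderm, paraxial mesoderm, primitive streak, fibroblasts with smooth muscle, and neuroectoderm. Alternatives were RLE scaling, no filter, DESeq2 1.42.0, limma-voom (limma 3.58.1), only the groups compared, a replicate block, removal of length and GC trends, and leaving out each library.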

Additional observations from a re-analysis of the deposited data

Results flagged for a closer look

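The doxycycline difference of Tbx20 was greater at day 2.5 than at day 2 by 2.66 ± 0.28 on the log2 scale (edgeR interaction, adjusted p = 1.53e-05). The doxycycline difference of Pdgfra was more negative at day 2.5 than at day 2, with a log2 interaction of -1.69 ± 0.33 (edgeR, adjusted p = 0.00373). Both are listed because the effect of the same treatment differed between days by the test of that difference.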

How the results depend on the processing

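No member that passed the threshold, in the main test or in the alternative, changed direction. Signs turned in 33 of 1067 member values under alternatives, in 17 results, all short of the threshold both ways, such as Tbx2 with doxycycline at day 2.5, at 0.12 and at -1.80 without replicate 2 of the doxycycline-treated pair. RLE scaling changed no call among the 63 tested member results. With groups of 2 libraries a single library often decides a call of a low or moderate gene, and the cause of each change below was not tested. Of members called higher with doxycycline at day 2 (0), there were 2 without the filter, 1 with DESeq2, 2 with length and GC trends removed, and 0 to 2 on leaving out a library. Of those called lower (0), there were 2 without the filter, 1 with trends removed, and 0 to 1 on leaving out a library. At day 2.5 the counts with doxycycline ranged from 2 to 3 higher and 1 to 2 lower on leaving out a library. For Flk1-positive against other doxycycline-treated samples, 2 were higher when only those groups were fitted, and leaving out a library gave 1 to 1 higher and 1 to 4 lower. Against untreated samples it gave 2 to 3 higher and 2 to 3 lower. In untreated samples over time, 1 member was higher without the filter and 1 with only the groups compared, and leaving out a library gave 0 to 2 lower. With doxycycline over time, leaving out a library gave 3 to 3 higher and 3 to 4 lower. For the interaction, 2 were higher without the filter and 2 with DESeq2, with 1 to 2 higher and 1 to 1 lower on leaving out a library.

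Over all tested genes with doxycycline at day 2, 453 were higher and 227 lower. These were 117 and 38 with only the groups compared, and the lower count was 437 without the filter, 343 with DESeq2 and 470 with trends removed. On leaving out a library they ranged from 188 to 1035 higher and from 58 to 1275 lower. At day 2.5, 2349 were higher (1566 to 3040 on leaving out a library) and 2001 lower (1032 to 2945, and 3291 with trends removed). In untreated samples over time the 1342 higher and 1494 lower became 2299 and 2276 with only the groups compared, and ranged from 358 to 2266 and from 322 to 2536 on leaving out a library. The interaction had 1000 higher (559 to 2115 on leaving out a library) and 763 lower (278 to 1954, and 1649 with trends removed). For Flk1-positive against other doxycycline-treated samples leaving out a library gave 1909 to 3779 higher, against 2982.

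Replicate numbers did not pair the samples throughout: the correlation of same-numbered deviations was above 0.1 in 4 of 10 pairs of groups and ranged from -0.15 to 0.34. It was highest between the day-2 doxycycline and Flk1-positive pairs (0.34) and the 2 doxycycline pairs of day 2 and day 2.5 (0.22). Whether some groups were paired was not tested. With a replicate block no member call changed, so that 3 members stayed higher and 2 lower with doxycycline at day 2.5, among 2412 and 2089 genes in all. With length and GC trends removed, Ahnak and Hdac4 changed sign with doxycycline over time, to -0.42 and -0.39 on the log2 scale, against 0.020 and 0.0038 otherwise. Tbx2 was filtered out of 1 fit of only the groups compared, and DESeq2 gave no adjusted p for 3 results. Levels per kilobase, ratios and nearest profiles were not repeated under the alternatives. Depth limits Tbx2, Isl1 and Foxf1a.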

Other observations

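The primitive streak markers fell as a block with doxycycline at day 2.5: all 10 tested were lower, with a median log2 of -2.13, where 13.8% of all tested genes were lower. Their summed level was 832 to 880 CPM in Flk1-positive, 1003 to 1052 CPM in other doxycycline-treated and 3411 to 3838 CPM in untreated samples. Between the 2 treated groups they split, with 3 higher and 7 lower in Flk1-positive samples. The higher ones were T, at 561 against 362 CPM, Evx1, at 46.8 against 22.7 CPM, and Lhx1, at 31.4 against 7.22 CPM. The largest part of the Flk1-positive sum was T. Mixl1, a homeobox factor of the streak, averaged 94.5 ± 7.12 CPM with doxycycline and 479 ± 14.5 CPM untreated (SD, n = 2 each), and fell by 2.34 ± 0.10 (edgeR, adjusted p = 9.44e-11). Eomes, a T-box factor of streak and endoderm, fell by 1.99 ± 0.11 (edgeR, adjusted p = 1.69e-09). The list shares Mesp1 and Fgf8 with the cardiac regulators and Lhx1 with the relatives.

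The other marker lists were mixed, where 16.1% of all tested genes were higher and 13.8% lower with doxycycline at day 2.5. Of 10 definitive endoderm markers, 1 was higher and 5 lower with doxycycline at day 2.5, and Foxa2, a forkhead factor of endoderm, fell by 1.53 ± 0.25 (edgeR, adjusted p = 2.80e-04). Of 8 tested paraxial markers 2 were higher and 3 lower, of 8 fibroblast and smooth muscle markers 1 was higher and 2 lower, and of 7 neuroectoderm markers 3 were higher and 1 lower. The paraxial count was 1 higher with RLE, DESeq2, limma-voom or the replicate block, and without either Flk1-positive library, either untreated library or replicate 1 of the doxycycline-treated pair of day 2.5, and 1 lower without replicate 2 of the doxycycline-treated or untreated pair. The higher fibroblast and smooth muscle count was 0 without either untreated library of day 2.5. The higher definitive endoderm count was 0 without either doxycycline-treated library or replicate 2 of the untreated pair, and 2 with length and GC trends removed. The lower neuroectoderm count was 2 with only the groups compared. Of the endothelial markers all 14 tested were higher, and of the haematopoietic ones 10 of 12.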
